A study of Homo sapiens with 6 samples.

Results

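The genes described here are IFI6, IFI27, IFI44, IFI44L, IFI16, IFI35, XAF1, EPSTI1 and LY6E, most of which carry the interferon-induced IFI name. They were chosen by name and not by a threshold on measured values, with earlier results of these data known. The FPKM values of all transcripts of a gene were summed, so each gene has 1 value per sample. FPKM counts fragments per kilobase of transcript, scaled to library depth, so levels can be set side by side between genes. All 9 genes were among the 58174 genes listed, and all passed the filter on low values (0.5 FPKM or more in 3 or more samples), which left 16321 genes for testing.

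Interferons are cytokines that cells release when they sense viral nucleic acid. Receptor binding activates the kinases JAK1 and TYK2 and, through them, the factor ISGF3, which contains STAT2 and IRF9. ISGF3 binds interferon-stimulated response elements (ISREs) and switches on interferon-stimulated genes (ISGs). The genes described here belong to that class and act at several points of the response, in membranes and mitochondria, in DNA sensing, in the control of apoptosis and at the cell surface.

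SiHa is an established human line of cervical squamous cell carcinoma. The cells were transfected by means of Lipofectamine 3000 with either GV230-BRCA1 (OV-BRCA1 group, 3 samples) or GV230 without insert (NC group, 3 samples) and were collected 48 h later. All 6 samples therefore carried plasmid DNA and reagent, and untreated SiHa cells were not analysed here. The question asked of these samples was which transcripts differ when BRCA1, a DNA repair protein, is overexpressed.

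BRCA1 had an FPKM of 35.7, 40.8 and 34.9 in OV-BRCA1 samples 1, 2 and 3 and of 20.1, 14.9 and 21.7 in NC samples 1, 2 and 3 (log2FC = 0.95, limma adjusted p = 0.00373). The estimated depth was 14.3 to 16.65 M fragments per OV-BRCA1 sample and 16.05 to 19.9 M per NC sample, and mitochondrial genes took 14.8% to 17.2% and 21.0% to 23.2% of the summed FPKM, respectively. Of 8 epithelial markers, KRT5 and TP63 stayed below 0.5 FPKM in every sample. KRT19 and CDH1 were low, with means of 0.517 and 0.726 FPKM in the OV-BRCA1 samples and 0.529 and 0.435 in the NC samples. The summed FPKM of the 8 markers was 1593 to 1740.3 per OV-BRCA1 sample and 1933 to 1977 per NC sample. KRT17 set that difference, with a log2FC of -0.48, while the other 4 tested markers were higher, from 0.20 for KRT8 to 1.12 for EPCAM, which was upregulated. The leukocyte marker PTPRC, the fibroblast marker LUM and the endothelial markers VWF and KDR were listed at 0 in every sample. The summed FPKM of the 6 leukocyte markers was 6.78 to 9.21 in the OV-BRCA1 samples and 18.0 to 20.6 in the NC samples, nearly all of it CD14. The 6 fibroblast markers summed to 3.31 to 3.82 and 6.15 to 6.75, nearly all of it COL1A1, and the 4 endothelial markers to 0.761 to 1.45 and 0.629 to 0.788. Their part in the results was not tested.

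The promoters are shown first because several of these genes share a motif. Whether the motif bears on the levels was not tested. RefSeq promoters (GRCh38.p14, 250 bases before to 50 after a start site) were found for 8 of the 9 genes. The ISRE was searched as TTTCNNTTTC, or GAAANNGAAA on the other strand. It was present for 5 of the 8 genes, against 4.38% of all 27305 genes with a promoter (3.57% of 35116 promoters). The stretches below run 5′ to 3′ on the strand of the gene, with the ISRE matches in capitals. They lie at chr1:27672251-27672373 (minus strand) for IFI6, chr14:94110603-94110675 (plus) for IFI27, chr1:78649746-78649788 (plus) for IFI44, chr1:78620259-78620409 (plus) for IFI44L and chr13:42992257-42992316 (minus) for EPSTI1.
IFI6: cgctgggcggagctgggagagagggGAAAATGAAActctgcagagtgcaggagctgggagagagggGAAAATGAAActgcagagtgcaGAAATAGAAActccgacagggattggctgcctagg
IFI27: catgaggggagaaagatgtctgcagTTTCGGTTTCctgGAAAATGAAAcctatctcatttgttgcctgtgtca
IFI44: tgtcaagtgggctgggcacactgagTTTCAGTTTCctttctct
IFI44L: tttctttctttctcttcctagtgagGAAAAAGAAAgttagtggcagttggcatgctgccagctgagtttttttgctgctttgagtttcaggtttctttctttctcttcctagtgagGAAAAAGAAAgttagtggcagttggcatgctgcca
EPSTI1: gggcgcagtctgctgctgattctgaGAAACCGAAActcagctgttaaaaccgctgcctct

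IFI6 carried 3 matches, beginning 156, 115 and 93 bases upstream of the start site. The first and second of these lie in a repeat of 29 identical bases. In IFI44L, the matches 164 and 73 bases upstream sit in an exact repeat of at least 60 bases. It reaches both ends of the stretch shown, so its full length was not measured. IFI27 had matches 108 and 95 bases upstream of its first listed start site, IFI44 had 1 match 18 bases upstream, and EPSTI1 had 1 match 50 bases upstream. At least 2 matches occurred in 0.259% of all promoters. No match to these letters was found for IFI16, IFI35 or XAF1. The GAS element, bound by STAT factors and searched as TTCNNNGAA, which reads the same on both strands, was found for IFI27, IFI35 and EPSTI1 and for 9.38% of all genes. In IFI27 the GAS letters overlapped both ISRE matches, and in EPSTI1 they overlapped the single one. These matches describe letters in a window and not sites shown to be bound.

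All 9 genes had a higher mean with BRCA1 overexpression, and for each of them the lowest OV-BRCA1 value exceeded the highest NC value, as in 23.4% of all genes tested. Upregulation was called at a Benjamini-Hochberg adjusted p below 0.05 and a log2FC above 1 by limma on log2(FPKM + 1), a scale that understates the change of low genes. By that criterion 7 of the 9 were upregulated, against 2.89% of the genes tested, and EPSTI1 and LY6E were not because their log2FC was below 1. With the adjusted p alone all 9 passed, against 16.4% of the genes tested that were higher at that threshold. EPSTI1 entered the test through the OV-BRCA1 samples alone, so its direction was fixed by the filter. The other 8 all passed the adjusted p, and 7 of them were upregulated. The median log2FC of the 9 genes was 2.11, or 2.13 without EPSTI1, and that of all genes tested was -0.04. In bulk samples, fewer cells of a type and less RNA per cell cannot be told apart.

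**Figure D1:**
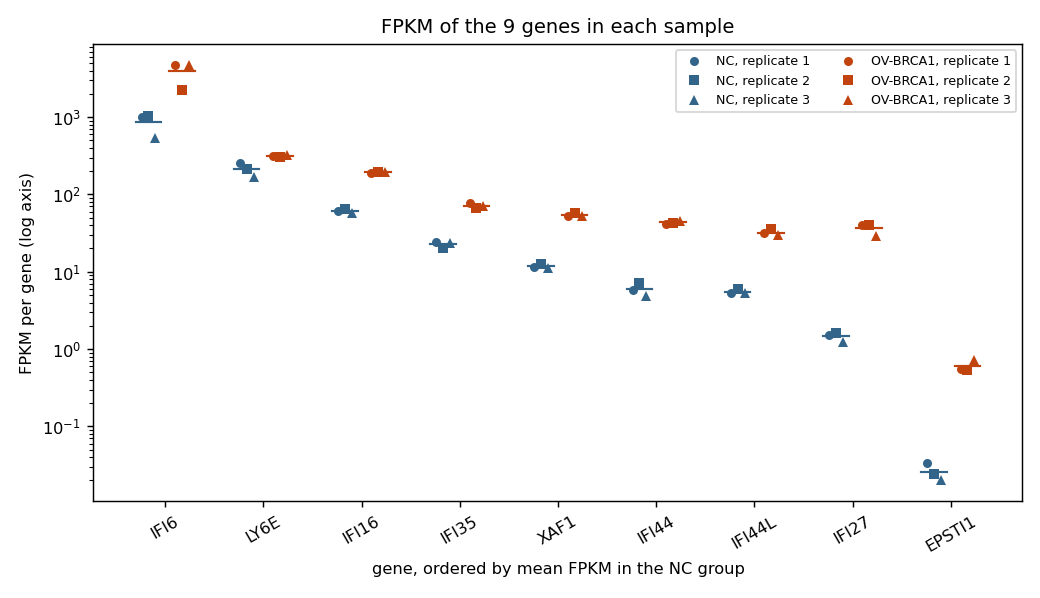
FPKM per gene on a log axis for the 9 genes in each of the 6 samples, with the replicates as symbols and the group means as lines. The OV-BRCA1 samples lay above the NC samples for every gene, with the closest approach in LY6E (303 against 255) and a wide spread in IFI6.

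IFI6 and IFI27 encode small hydrophobic proteins of one family that lodge in intracellular membranes, and IFI6 is known as an antiapoptotic and antiviral protein. IFI6 (chr1:27666061-27672218, minus strand) had FPKM values of 4677, 2254 and 4746 in OV-BRCA1 samples 1, 2 and 3 and of 998, 1037 and 540.5 in NC samples 1, 2 and 3. The groups did not overlap, but OV-BRCA1 sample 2 and NC sample 3 stood low within their groups. The mean was 3892 ± 1419 (SD, n = 3) in the OV-BRCA1 samples and 859 ± 276 in the NC group, and the log2FC was 2.16 (SE 0.37, 95% CI 1.26 to 3.06, limma adjusted p = 0.0062). IFI6 was the most abundant of the 9 and ranked 8 among the tested genes by mean FPKM in the OV-BRCA1 samples and 46 in the NC samples.

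IFI27 (chr14:94104836-94116698, plus strand), a mitochondrial protein linked to apoptosis, had FPKM values of 40.0, 40.1 and 29.1 in the OV-BRCA1 samples and of 1.53, 1.59 and 1.25 in the NC samples. The lowest OV-BRCA1 value was 18.3 times the highest NC value. With means of 36.4 ± 6.31 and 1.46 ± 0.185, the ratio was 24.96, the highest of the 8 genes other than EPSTI1. On the log2 scale the difference was 3.91 (SE 0.14, 95% CI 3.57 to 4.26, limma adjusted p = 1.3e-05), and only 15 of the 16321 genes tested had a larger log2FC. Its NC level rested on an estimated 19.2 to 33.0 fragments per sample.

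IFI44 and IFI44L are neighbouring paralogs on chromosome 1, separated by 3651 bases, whose cytoplasmic proteins are known as ISG products. IFI44 (chr1:78649796-78664078, plus strand) had FPKM values of 42.0, 42.4 and 46.0 in the OV-BRCA1 samples and of 5.86, 7.14 and 4.81 in the NC samples. The lowest OV-BRCA1 value was 5.88 times the highest NC value, although the NC samples spread by a coefficient of variation of 19.7%. The log2FC was 2.69 (SE 0.13, 95% CI 2.39 to 2.998, limma adjusted p = 3.9e-05). IFI44L (chr1:78619922-78646145, plus strand) had FPKM values of 31.3, 35.5 and 29.6 in the OV-BRCA1 samples and of 5.32, 6.03 and 5.28 in the NC samples. Again no sample crossed between the groups. Its log2FC was 2.34 (SE 0.09, 95% CI 2.12 to 2.55, limma adjusted p = 1.6e-05). Both paralogs were thus at like levels in the NC group, with means of 5.94 ± 1.17 and 5.54 ± 0.418 FPKM, while in the OV-BRCA1 group all samples of IFI44 lay above those of IFI44L.

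IFI16 is a nuclear DNA sensor of the PYHIN family that acts with STING. IFI16 (chr1:158999968-159055155, plus strand) had FPKM values of 188, 193 and 196 in the OV-BRCA1 samples and of 60.7, 65.0 and 57.7 in the NC samples. It had the smallest spread of the 9 genes, with a coefficient of variation of 1.97% in the OV-BRCA1 samples and 6.03% in the NC group. The mean was 192 ± 3.78 against 61.2 ± 3.69 FPKM, a ratio of 3.15 and a log2FC of 1.64 (SE 0.06, 95% CI 1.51 to 1.77, limma adjusted p = 1.05e-05).

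IFI35 binds its relative NMI and is known as a cytoplasmic and released mediator of inflammation. IFI35 (chr17:43006725-43014456, plus strand) had FPKM values of 76.6, 66.3 and 70.8 in the OV-BRCA1 samples and of 24.2, 20.5 and 23.4 in the NC samples. The ratio of the means was 3.14, close to that of IFI16, and the log2FC was 1.61 (SE 0.08, 95% CI 1.40 to 1.81, limma adjusted p = 6.2e-05). It lies 29839 bases from the BRCA1 gene itself on the same chromosome.

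XAF1 antagonises the caspase inhibitor XIAP and so favours apoptosis. XAF1 (chr17:6755447-6775647, plus strand) had FPKM values of 52.7, 57.4 and 52.6 in the OV-BRCA1 samples and of 11.5, 12.8 and 11.1 in the NC samples. The groups were separated by 4.12 times between the nearest samples. Its log2FC was 2.11 (SE 0.07, 95% CI 1.94 to 2.28, limma adjusted p = 1.05e-05).

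EPSTI1, named for its induction in epithelial cells by stromal contact, was the least abundant. EPSTI1 (chr13:42886388-42992271, minus strand) had FPKM values of 0.548, 0.536 and 0.716 in the OV-BRCA1 samples and of 0.0336, 0.0239 and 0.0200 in the NC samples. It passed the filter only through the OV-BRCA1 group, so a difference in this direction was built into its presence among the tested genes. The values correspond to an estimated 26.7, 27.8 and 32.5 fragments against 1.77, 2.13 and 1.83, and no fold was taken against so few. The log2FC was 0.64 (SE 0.09, 95% CI 0.43 to 0.85, limma adjusted p = 0.00267) with the pseudocount of 1 and 2.47 with a pseudocount of 0.1, at which it passed the criterion.

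LY6E, a surface protein anchored by a lipid tail and known to restrict entry of several viruses, changed least as a ratio. LY6E (chr8:143017982-143023832, plus strand) had FPKM values of 318, 303 and 328 in the OV-BRCA1 samples and of 255, 214 and 168 in the NC samples. The groups did not overlap, and the NC samples spread more widely (coefficient of variation 20.6%) than the OV-BRCA1 samples (3.92%). The ratio of the means was 1.49, and the log2FC was 0.59 (SE 0.15, 95% CI 0.24 to 0.94, limma adjusted p = 0.022). The adjusted p lay above 0.05 without OV-BRCA1 sample 1, 2 or 3 or NC sample 2 (0.0607, 0.0506, 0.0677 and 0.0549, limma), with no filter on low values (0.0621) and with the most abundant transcript in place of the sum (0.114).

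**Figure D2:**
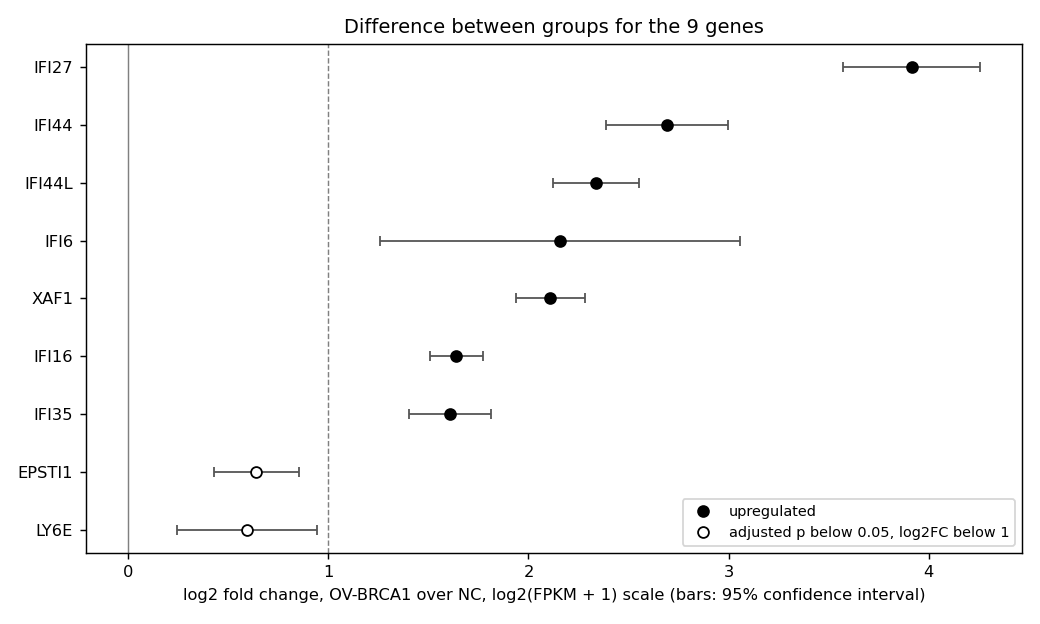
log2 fold change of the OV-BRCA1 group over the NC group for the 9 genes on the log2(FPKM + 1) scale, with 95% confidence intervals from limma. Filled points were upregulated, open points had a log2FC below 1, and the dashed line marks that limit. IFI27 stands highest at 3.91, and IFI6 has the widest interval.

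In the NC group the mean FPKM ran from IFI6 through LY6E, IFI16, IFI35, XAF1, IFI44, IFI44L and IFI27 to EPSTI1. Neighbours in this order were separated in every sample except IFI44 and IFI44L, whose values overlapped. In the OV-BRCA1 group IFI27 stood above IFI44L by its mean, and the samples of these genes overlapped, while the remaining order was the same. By rank, IFI27 moved from 12982 to 2079 and IFI44 from 8495 to 1720 among the 16321 genes tested.

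The 9 genes have 103 annotated transcripts in the files, of which 66 passed the filter and 29 were upregulated by the same criterion, against 1.46% of the 50925 transcripts tested. None was downregulated, 64 were higher in the OV-BRCA1 samples and 2 were lower, both of LY6E. In 15 of the 66, among them 8 of the 10 tested for IFI27, no NC sample reached 0.5 FPKM, so they entered the test through the OV-BRCA1 samples alone and their direction was fixed by the filter. Of the other 51, 49 were higher, 2 lower and 21 upregulated. The count of 29 fell to 18 without OV-BRCA1 sample 2, to 16 without NC sample 1 and to 5 with the replicate number as a block. All 9 transcripts of IFI44 were upregulated, as were 6 of 10 tested for IFI27, 6 of 11 for IFI16 and 4 of 6 for IFI44L. For XAF1 the count was 2 of 6, for IFI6 1 of 3, for IFI35 1 of 7 and for LY6E 0 of 14. IFI44-204 lay near the limit (limma adjusted p = 0.0495). IFI44-205, IFI44-206, IFI44-207 and IFI44-208 did not pass without OV-BRCA1 sample 1. No EPSTI1 transcript passed the filter, and EPSTI1-201 was listed at 0 in all NC samples and at 0.507, 0.4999 and 0.617 FPKM in the OV-BRCA1 samples. Many of these transcripts share nearly all of their bases, and the tool that divided the reads among them is not given in the sources used here.

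For IFI6 the spread between replicates lay in particular transcripts. IFI6-203 was steady at 749.6, 769 and 760.4 FPKM in the OV-BRCA1 samples and 148, 155 and 169.5 in the NC samples (log2FC = 2.27, limma adjusted p = 1.5e-04). IFI6-202 had 3723, 1420.4 and 3789 FPKM in the OV-BRCA1 samples and 817, 846 and 356 in the NC samples, so it was low in OV-BRCA1 sample 2 and NC sample 3. IFI6-201, which met the criterion only when OV-BRCA1 sample 2 was left out (log2FC = 2.89, limma adjusted p = 0.0495), was low in the same samples, at 64.0 FPKM against 204 and 196 in the other OV-BRCA1 samples and at 14.6 against 33.9 and 35.6 in the other NC samples. IFI6-203 made up 34.1% and 31.4% of the gene's FPKM in these 2 libraries and 14.8% to 16.0% in the other 4. Without both libraries, a choice made after the values had been seen, the log2FC of IFI6 was 2.21 (limma adjusted p = 8.6e-04).

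The IFI6 transcripts differ by short coding insertions and in their first base. Compared with IFI6-202, IFI6-203 starts 20 bases and IFI6-201 starts 40 bases downstream. The stretches run 5′ to 3′ from the GENCODE 29 transcripts, cover chr1:27668521-27669259 (minus strand, GRCh38) across an intron and lie within the coding sequence. Capitals mark the bases absent from IFI6-202, which are 12 (4 codons) in IFI6-203 and 24 (8 codons) in IFI6-201. The 12 bases of IFI6-203 also occur in IFI6-201, so they do not by themselves set the steady transcript apart.
IFI6-202: gtggggtggaggcaggtaagaaaaagtgct
IFI6-203: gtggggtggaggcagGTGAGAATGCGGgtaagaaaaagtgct
IFI6-201: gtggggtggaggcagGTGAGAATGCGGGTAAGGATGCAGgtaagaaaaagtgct

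In IFI35 the makeup differed between the groups. IFI35-203 had 47.7, 41.8 and 39.2 FPKM in the OV-BRCA1 samples and 2.80, 2.51 and 4.33 in the NC samples (log2FC = 3.40, limma adjusted p = 9.9e-04). IFI35-204 had 18.2, 14.0 and 19.6 FPKM against 16.5, 13.4 and 13.4, and its difference did not pass the test (log2FC = 0.24, limma adjusted p = 0.45). The first transcript therefore rose while the second overlapped between the groups. As a share of the gene's FPKM, IFI35-203 was 60.3% ± 4.27 in the OV-BRCA1 samples and 14.1% ± 3.80 in the NC group (n = 3 each), and IFI35-204 was 24.2% ± 3.27 and 63.5% ± 5.77. Both shares were separate between the groups (2-sided exact permutation p = 0.1, the smallest that 3 against 3 samples allow).

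These IFI35 transcripts are 1241 and 1232 bases long. IFI35-204 starts 15 bases downstream of IFI35-203, and within the coding sequence it holds 6 more bases (2 codons). The stretches below, at chr17:43013359-43013490 (plus strand, GRCh38, GENCODE 29), run 5′ to 3′ across an intron, with the added bases in capitals.
IFI35-203: gtcaccaccatccagatgtccagccagttg
IFI35-204: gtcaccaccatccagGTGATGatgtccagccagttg

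Transcripts of IFI16 and LY6E were divided differently in NC sample 2 than in the other NC samples. IFI16-209 had 44.9, 47.7 and 47.2 FPKM in the OV-BRCA1 samples and 0.369, 12.6 and 0.367 in the NC samples, and with this spread the difference did not pass (log2FC = 4.02, limma adjusted p = 0.0736). IFI16-208, the most abundant transcript of that gene, was steady within groups at 94.9, 94.1 and 98.3 FPKM against 42.5, 36.8 and 39.3 (log2FC = 1.26, limma adjusted p = 0.00116). LY6E-207 had 145, 137 and 136 FPKM in the OV-BRCA1 samples and 1.08, 81.3 and 0.818 in the NC samples. LY6E-210 showed the opposite pattern, with 5.37, 4.64 and 4.42 FPKM against 80.7, 4.23 and 70.1. Neither difference passed (limma adjusted p = 0.173 and 0.27). Without NC sample 2, LY6E-207 (log2FC = 6.17, limma adjusted p = 6.2e-04), LY6E-210 (log2FC = -3.72, limma adjusted p = 0.00273), LY6E-212 (log2FC = 4.55, limma adjusted p = 0.00579) and IFI16-209 (log2FC = 5.12, limma adjusted p = 7.6e-04) all met the criterion. The sum of LY6E-207, LY6E-210 and LY6E-212 was more even, at 202, 192 and 212 FPKM in the OV-BRCA1 samples and 83.7, 106 and 72.0 in the NC samples. LY6E-214 went the other way, with 51.4, 50.3 and 65.2 FPKM against 114, 74.8 and 70.1 (log2FC = -0.60, limma adjusted p = 0.183).

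**Figure D3:**
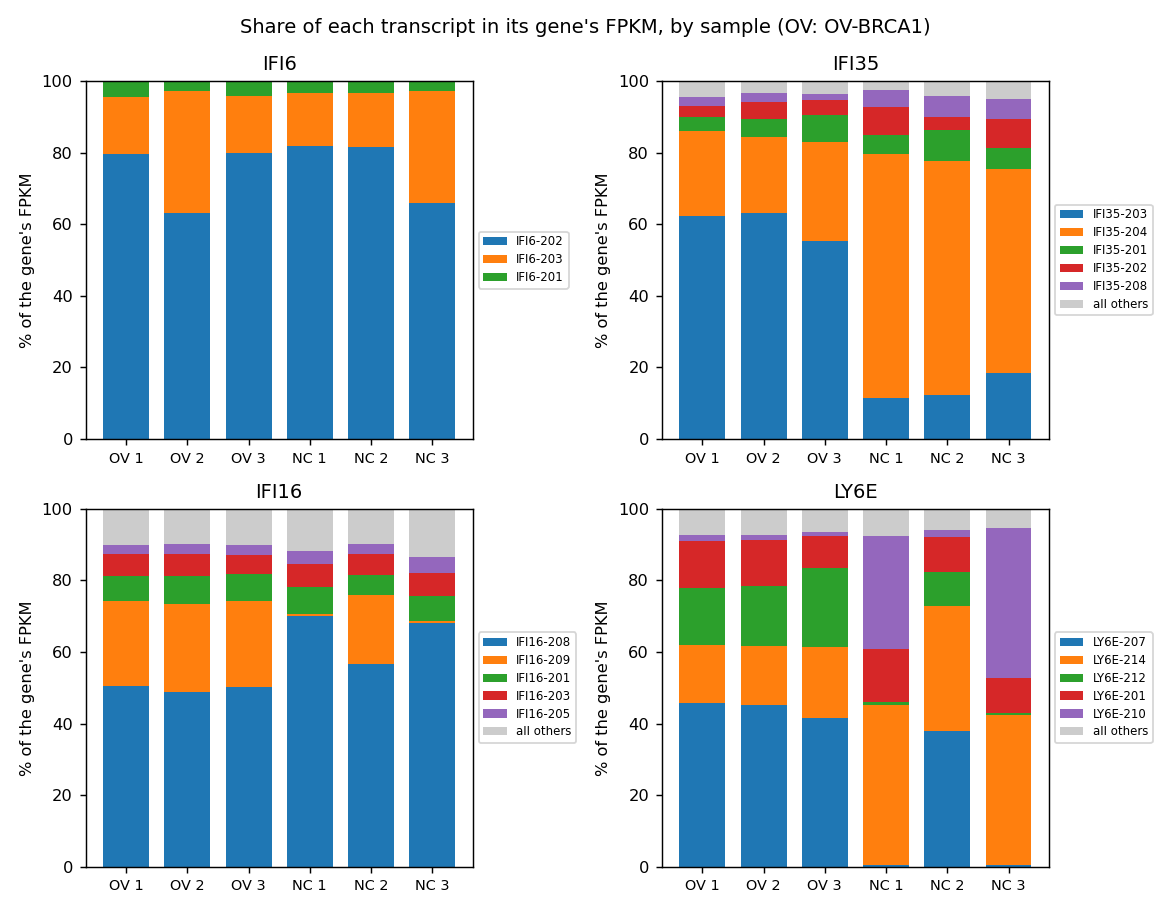
Share of each transcript in the summed FPKM of its gene (percent, stacked to 100) for IFI6, IFI35, IFI16 and LY6E in each sample, with the 5 most abundant transcripts coloured and the rest in grey. IFI35-203 and IFI35-204 change places between the groups, IFI6-203 is broader in OV-BRCA1 sample 2 and NC sample 3, and NC sample 2 differs from the other NC samples for IFI16 and LY6E.

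XAF1-202 carried most of XAF1, with 41.0, 47.2 and 42.0 FPKM against 8.54, 9.32 and 8.96 (log2FC = 2.16, limma adjusted p = 4.7e-04). IFI44L-201 had 16.8, 10.05 and 15.9 FPKM against 2.40, 2.59 and 2.48 (log2FC = 2.10, limma adjusted p = 0.00659), and OV-BRCA1 sample 2, the lowest of its group, had 14.8 FPKM of the retained-intron transcript IFI44L-209 where the other OV-BRCA1 samples had 3.07 and 3.02. Transcripts annotated as retaining an intron made up 19.7% ± 6.23 of IFI27 in the OV-BRCA1 samples and 41.2% ± 7.16 in the NC group. For IFI35 they made up 13.8% ± 2.27 and 21.4% ± 1.52. In both genes the NC samples all lay above the OV-BRCA1 samples, as they did in IFI16, where the shares were small (5.17% and 6.56%). The same held in EPSTI1 (0% to 3.43% in the OV-BRCA1 samples and 8.06% to 100% in the NC group). In IFI44L (34.1% ± 16.9 and 42.1% ± 6.47) and XAF1 (5.57% ± 1.12 and 6.71% ± 2.72) the groups overlapped. These shares were not tested, and those of IFI27 and EPSTI1 rest on few fragments in the NC group. How often the groups separate in this way over all genes was not counted.

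The signalling genes upstream of the 9 genes formed a list of 14, all tested. Of these, 9 were higher and 5 lower, 4 were upregulated and none downregulated, and the median log2FC was 0.68. The lower genes included IRF3 at a log2FC of -0.00089, and the count of 4 was 3 without OV-BRCA1 sample 3, NC sample 1 or NC sample 3. USP18, which dampens receptor signalling, had a mean FPKM of 55.6 ± 0.762 in the OV-BRCA1 samples and 9.83 ± 0.402 in the NC group (log2FC = 2.39, limma adjusted p = 3.4e-06). The regulators IRF7 and IRF1 had log2FC of 1.62 and 1.00, with IRF1 at the limit of the criterion. STAT2 and IRF9, which form part of ISGF3, had log2FC of 0.93 and 0.72, both past the adjusted p alone. The receptor kinases JAK1 and TYK2 had log2FC of -0.28 and -0.58 and were lower at an adjusted p of 0.0053 and 0.0122 (limma). The receptor subunits IFNAR1 and IFNAR2 had log2FC of -0.11 and -0.19, which did not pass (limma adjusted p = 0.465 and 0.362). Of the other receptor subunits listed, IFNLR1 had a log2FC of 0.42, past the adjusted p alone (limma adjusted p = 0.0212). IL10RB had a log2FC of 0.64, which did not pass (limma adjusted p = 0.0975).

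A list of 46 other ISGs had 45 tested genes, all of them higher, 39 upregulated and none downregulated, with a median log2FC of 2.18. In CXCL10, CXCL11 and RTP4 no NC sample reached 0.5 FPKM, so their direction was fixed by the filter, and of the other 42 genes 37 were upregulated. ZBP1 was not tested and was listed at 0 in every sample. IFIT1, IFIT3 and IFIT2, antiviral proteins that bind viral RNA or one another, had the smallest adjusted p-values, with log2FC of 3.82, 4.08 and 4.03. IFI27 lay near the IFIT genes in size of change, IFI44 and IFI44L lay above the median of that list and the other 6 genes lay below it.

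Relatives of the 9 genes did not all move. IFI27L1 and IFI27L2, paralogs beside IFI27, had log2FC of -0.03 (limma adjusted p = 0.861) and -0.74 (limma adjusted p = 0.0284), against 3.91 for IFI27. IFI27L1 lies 990 bases away and had 19.8, 20.02 and 24.7 FPKM in the OV-BRCA1 samples and 22.6, 24.0 and 19.3 in the NC samples. Among the PYHIN relatives of IFI16, the inflammasome sensor AIM2 was upregulated (6.24 ± 0.653 against 0.173 ± 0.151 FPKM, log2FC = 2.63, limma adjusted p = 4.9e-05), and MNDA and PYHIN1 were listed at 0 in every sample. NMI, the relative and partner of IFI35, was upregulated with a log2FC of 1.35 (limma adjusted p = 2.2e-05). IFI30, a lysosomal thiol reductase with an IFI name but another structure, had a log2FC of 0.81 and a mean of 337 ± 15.6 against 192 ± 3.85 FPKM. Of the 5 tested of these 7 genes, NMI and AIM2 were upregulated. The direction of AIM2 was fixed by the filter, since no NC sample reached 0.5 FPKM, which leaves 1 of 4.

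Besides NMI, 6 partners in apoptosis and DNA sensing were tested, of which only BIRC3 was upregulated and none downregulated. With NMI included, the count was 2 in all samples and 3 without OV-BRCA1 sample 1 or NC sample 3. XIAP, the target of XAF1, had 2.38 ± 0.208 against 1.94 ± 0.50 FPKM (log2FC = 0.21, limma adjusted p = 0.289). The related inhibitor BIRC3 was upregulated from 1.57 ± 0.317 to 14.9 ± 1.73 FPKM (log2FC = 2.63, limma adjusted p = 4.6e-05), and BIRC2 had a log2FC of 1.00 that did not pass (limma adjusted p = 0.0565). Of the DNA sensing pathway in which IFI16 acts, the sensor CGAS had a log2FC of 0.86 and TMEM173, which encodes STING, of 0.51, both past the adjusted p alone, while the kinase TBK1 had -0.07 (limma adjusted p = 0.422).

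The LY6 family, small cysteine-rich surface proteins related to LY6E, showed no common direction, with 4 of 8 tested genes higher and 4 lower and a median log2FC of -0.15. Only PLAUR, the urokinase receptor, was upregulated (log2FC = 1.21, limma adjusted p = 1.2e-05), and PSCA was downregulated (log2FC = -1.40, limma adjusted p = 1.7e-05). The complement inhibitor CD59 had a log2FC of -0.84 (limma adjusted p = 8.7e-05) and LY6K of 0.36 (limma adjusted p = 0.00354). The other 10 of the 18 listed did not pass the filter.

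**Figure D4:**
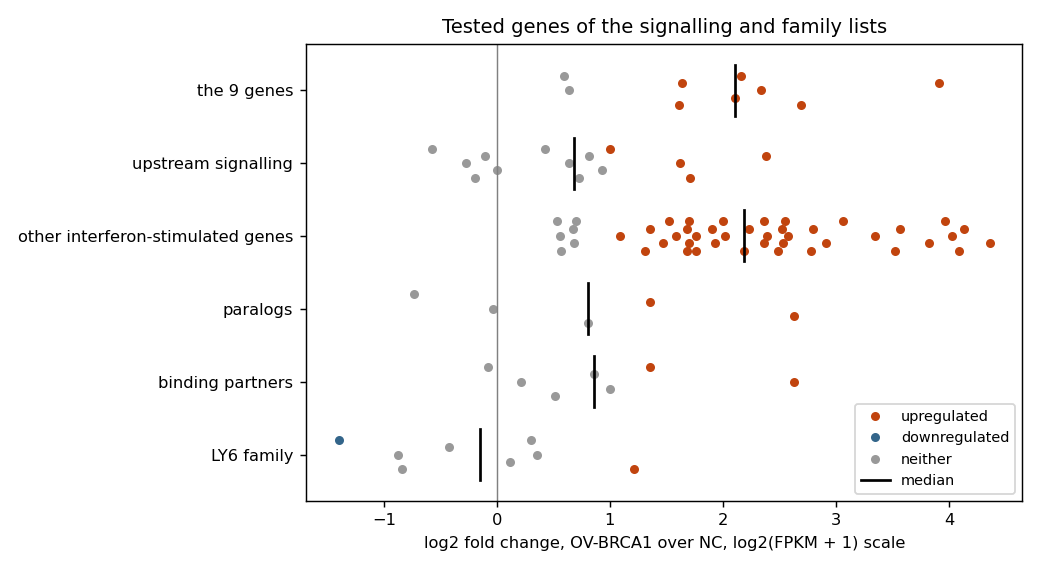
log2 fold change (OV-BRCA1 over NC, log2(FPKM + 1) scale) of each tested gene among the 9 genes and in the 5 lists, coloured by call, with the median of each list as a black line. The other ISGs all lie above 0 with a median of 2.18, whereas the LY6 family spans both directions.

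Within 50000 bases of the 9 genes lay 15 other tested genes. Of these, 10 were higher in the OV-BRCA1 group, 4 were upregulated and none downregulated, with a median log2FC of 0.34. Of all 16321 genes tested, 7540 were higher and 472 (2.89%) were upregulated, with a median log2FC of -0.04. One of the 15 is BRCA1, which the plasmid carries, and without it 9 of 14 were higher and the median was 0.20. The upregulated genes were AIM2, 7329 bases from IFI16, LINC02574, 3339 bases from IFI6 (log2FC = 1.26, limma adjusted p = 0.00436), AL445490.1, which overlaps IFI6 (log2FC = 1.91, limma adjusted p = 0.00192), and PRAL, which overlaps XAF1 (log2FC = 2.52, limma adjusted p = 0.00192). In AIM2 and PRAL no NC sample reached 0.5 FPKM, and in LINC02574 only 1 did. AL445490.1 and PRAL lie on the opposite strand to the gene they overlap. LY6E-DT likewise overlaps LY6E from the opposite strand (log2FC = 0.89, limma adjusted p = 0.0012). The use of strand in counting is not given in the sources used here, so reads of these genes and of their partners cannot be told apart. VAT1, only 149 bases from IFI35 on the opposite strand, had 18.7, 19.8 and 20.8 FPKM in the OV-BRCA1 samples and 28.5, 28.4 and 26.0 in the NC samples, a log2FC of -0.46 (limma adjusted p = 0.00298) opposite to that of IFI35. RPL27, 3766 bases away, had a log2FC of 0.07 (limma adjusted p = 0.336).

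The tested genes with the most alike profile were found by the root mean square difference between centred log2(FPKM + 1) values over the 6 samples, a description with no test. On this scale the pseudocount shrinks the differences of low genes, so genes of unlike level and unlike ratio can be matched. IFI27 was nearest to IFIT1 (0.175) and TRIM22 (0.178), IFI16 to HERC6 (0.0334) and PROCR (0.0440), and XAF1 to CSF3 (0.0800) and DDX60 (0.0810). The nearest to IFI44 were IL11 (0.0897) and CD68 (0.0965), to IFI44L AL645608.7 (0.0697) and LINC01647 (0.0708), and to IFI35 PGPEP1L (0.0369) and SAA1 (0.0597). PGPEP1L had a mean of only 2.17 against 0.0535 FPKM, a larger ratio than that of IFI35, while SAA1 had 90.9 against 28.7 FPKM. EPSTI1 was nearest to BTN2A1 (0.0306) and ZFAND2A (0.0361), although BTN2A1 had 12.9 against 7.78 FPKM, a far higher level and a smaller ratio. LY6E was nearest to XRCC4 (0.0586) and TACR2 (0.0667). IFI6 had no close match, since MXD1 (0.326) and AC092490.1 (0.384) were the nearest.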

How the data were processed

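The authors sequenced mRNA libraries and deposited FPKM values per transcript, made from cleaned reads. The submitters' processing notes name FastQC, HISAT2 and hg38. The quantification tool and use of strand are not given in the sources used here. The 6 files of single samples held the same values as the series table, which lists 199167 transcripts. Names came from GENCODE 29, which held 198868 of them. FPKM was summed per gene and tested as log2(FPKM + 1) in limma 3.58.1 (R 4.3.3) with a mean-variance trend, without a replicate block, in all 6 samples, with Benjamini-Hochberg adjustment over the 16321 genes that reached 0.5 FPKM in 3 or more samples. Transcripts were tested the same way. The model was tested on simulated data. The study's methods call the samples of a group biological replicates. Separate cultures are not described, and p-values measure only the spread between these samples.

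Depth was estimated between 10 and 22 M from the value of 1 fragment in 14216 single-transcript genes (length 600 to 5000). Between 33.1% and 40.1% of low values lay within 0.1 of a whole fragment, so no counts were recovered, and the estimates cover counting error only.

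The 9 genes and all lists were chosen with earlier results of these data known. The text names the 9 genes, BRCA1, the 3 smallest adjusted p-values of each list with up to 4 genes of the other direction, the nearest or overlapping genes and the 2 most alike profiles. One further gene that this rule would name is left out. IRF7, IRF1, IRF9, XIAP, BIRC2, TMEM173, CXCL10, CXCL11, RTP4, LINC02574, RPL27, the marker genes and the transcripts were named after their values were seen. So were IFNLR1 and IL10RB. Same-numbered samples did not deviate together (r = -0.024, 0.025 and 0.014), so the numbers only name samples. Alternatives were a pseudocount of 0.1, other filters, scalings, the block, robust estimation, the adjusted p alone, the most abundant transcript and each sample left out. Further tools were pandas 2.3.3, numpy 2.4.6 and matplotlib 3.10.9 in Python 3.11.15.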

Additional observations from a re-analysis of the deposited data

How the results depend on the processing

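The 9 genes kept their direction in all 142 alternative values and none lost a call. Of these values, 14 were of EPSTI1, whose direction was fixed by the main filter. EPSTI1 passed the criterion with a pseudocount of 0.1 (log2FC 2.47), and EPSTI1 and LY6E passed with the adjusted p alone. EPSTI1 had no value under an FPKM of at least 1 in all samples or with the most abundant transcript. The log2FC of IFI6 ranged from 1.86 to 2.51 and its adjusted p reached 0.048 (limma) with the most abundant transcript. That choice also gave the highest log2FC of LY6E, which ranged from 0.44 to 4.37 (limma adjusted p = 0.114 at the latter, not passed), and of IFI35, from 1.54 to 3.40. The count of 472 upregulated genes became 764 with a pseudocount of 0.1, 311 with an FPKM of at least 1 in all samples and 2674 with the adjusted p alone, and the 179 downregulated became 516 and 3090 with the pseudocount of 0.1 and the adjusted p alone. The adjusted p alone gave 8 upstream signalling genes, 4 partners and 2 of the LY6 family, and the stricter filter gave 1 paralog. With the replicate number as a block, 5 transcripts of the 9 genes were upregulated in place of 29 (IFI6-203, IFI35-203, XAF1-202, IFI16-208 and IFI44-201), with 7 genes as before and 3 partners in place of 2. Leaving out 1 sample gave 16 to 25 such transcripts. The cause of these changes was not tested. Leaving out OV-BRCA1 sample 2 and NC sample 3 together was chosen after seeing the data and left 7 of the 9 genes upregulated. EPSTI1 rested on few estimated fragments in the NC group, and the design of 3 against 3 samples cannot give an exact permutation p below 0.1.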
